A study of Mus musculus with 4 samples.

Results

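The Hedgehog pathway genes described here are Ptch1, Smo, Sufu, Gli1, Gli2 and Gli3, the receptor, signal transducer, inhibitor and transcription factors of one signalling route, and their messenger RNAs were examined for N6-methyladenosine (m6A) in day 4 mouse retinal organoids. Members were chosen by name, and a listed site was counted for a gene when its position and strand fell inside the gene span printed in the deposited site lists. Spans were found for 5 of the 6 genes, and Ptch1 was not analysed here. Together the 5 genes held 790 distinct sites of 881997 in all lists, of which 419 lay in Gli3, 138 in Smo, 116 in Sufu, 112 in Gli2 and 5 in Gli1.

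The study compared organoids lacking Mettl3, the catalytic subunit of the m6A writer complex, with wild type, by GLORI, a chemistry that deaminates unmodified adenosines so that they are read as G while m6A is still read as A. The wild type group was 2 libraries of the mouse Rx:GFP line, and the knockout group was 2 libraries of a Mettl3 KO line that, per the labels' protocols, also carries a doxycycline-inducible HA-tagged METTL3. The labels give "No" as the treatment of all 4 libraries, and both lines were differentiated for 4 days in GMEM medium with 5% KSR and 0.1 µM AGN. The labels do not give the lesion of the knockout line or the number of clones behind it, and all 4 libraries carry one batch label.

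Nothing in the labels says that the 2 libraries of a group came from separate cultures, so p-values measure only the spread between these libraries, which may be technical. The libraries are bulk RNA, in which fewer cells of a type and less RNA per cell cannot be told apart.

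Hedgehog ligands act by binding Patched 1, the product of Ptch1, which otherwise silences the membrane protein Smoothened, the product of Smo. Active Smoothened relieves the restraint that SUFU places on the GLI transcription factors in and around the primary cilium. In the developing eye, Hedgehog signal from the ventral midline divides the single eye field and favours optic stalk over retina, with GLI2 acting mainly as an activator, GLI3 mainly as a repressor and Gli1 as a transcriptional target that reports active signalling.

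Each list held sites with a level (the share of reads at an adenosine that stayed A), a coverage (A plus G reads at the site), and 2 values repeated over the sites of a gene, the gene's coverage and its conversion rate. No source used here defines these gene values: their meaning was read from column names and from how the values repeat, and the expected coverages and gene tests rest on that reading. The lists held 227298 and 288516 sites in wild type and 230299 and 215850 in the knockout, with a median coverage of 38 to 41 reads and a median level of 0.213 to 0.246. No listed site had fewer than 15 reads or a level below 0.1, so a site missing from a list can be unmodified, thinly covered or below the authors' thresholds. Mettl3 itself was still read in the knockout libraries: its gene coverage, relative to the library median, was 1.01 and 0.801 in wild type and 1.16 and 1.04 in the knockout (log2 difference 0.29 ± 0.18 (SE), limma adjusted p = 0.349). Since the lesion is not given and the knockout line carries a METTL3 transgene, this value checks neither genotype label. The summed relative coverage of the eye field markers with a gene value (4 of them with one in every library) was 38.5 and 40.1 in wild type against 13.0 and 11.7 in the knockout. These sums run over 5, 5, 4 and 4 genes, since Rax had a value in wild type alone (3.64 and 3.04). Six3 made up 16.3 and 17.6 of them in wild type and 1.81 and 2.45 in the knockout. Six3, Lhx2 and Sox2 were lower in the knockout (log2 differences of -3.01, -2.81 and -0.79, limma adjusted p at most 0.0267), whereas Pax6 had 2.22 and 2.23 against 2.61 and 2.23 (0.12, adjusted p = 0.728). Rax had 20 and 35 listed sites in wild type and 0 in both knockout libraries, while Six6 had 0 sites in all 4. Of 6 pluripotent cell markers, 2 had a value in every library: Pou5f1 with 0.924 and 1.12 in wild type against 0.672 and 0.599, and Nanog with 2.16 and 2.59 against 1.66 and 1.27. The whole list summed to 7.61 and 7.27 against 2.33 and 2.58, over 4, 5, 2 and 3 genes with a value. Of the floor plate markers only Foxa2 was analysed here, with 1 listed site in wild type replicate 1 and no gene value in any library. The part of these differences in the Hedgehog values was not tested.

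The 5 Hedgehog genes carried overlapping numbers of listed sites in both genotypes, and fewer strong ones in the knockout. Wild type libraries listed 202 and 245 sites in them and knockout libraries 227 and 204, so the groups overlapped (knockout over wild type 0.964, two-sided exact permutation p = 1.00). Sites with a level of at least 0.3 and at least 50 reads numbered 18 and 22 in wild type and 12 and 10 in the knockout, which is 20.0 ± 2.83 against 11.0 ± 1.41 (SD, n = 2). The groups did not overlap, and the exact permutation p was 0.333, the smallest that 2 against 2 libraries allow. Both statements depended on coverage. For all listed sites of at least 100 reads the ratio was 0.553 and the groups did not overlap. For strong sites of at least 20 reads it was 0.806 and the groups overlapped (exact permutation p = 0.667). Counts over all genes are not given here for these 2 settings, so neither ratio can be read as particular to the Hedgehog genes. In all genes together, sites with a level of at least 0.3 and at least 50 reads numbered 13243 and 19263 in wild type and 6974 and 7599 in the knockout. The genes differed among themselves: most of the difference in strong sites lay in Sufu, with 10 and 8 in wild type and 0 and 1 in the knockout. In 24.6% of the 8272 protein-coding genes with a gene value in every library, both knockout libraries also held fewer such sites than both wild type libraries. Gli3 had 8 and 6 against 7 and 5, Smo 0 and 4 against 1 and 3, and Gli2 0 and 4 against 4 and 1, all with overlapping groups. Gli1 had 0 in every library.

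**Figure D1:**
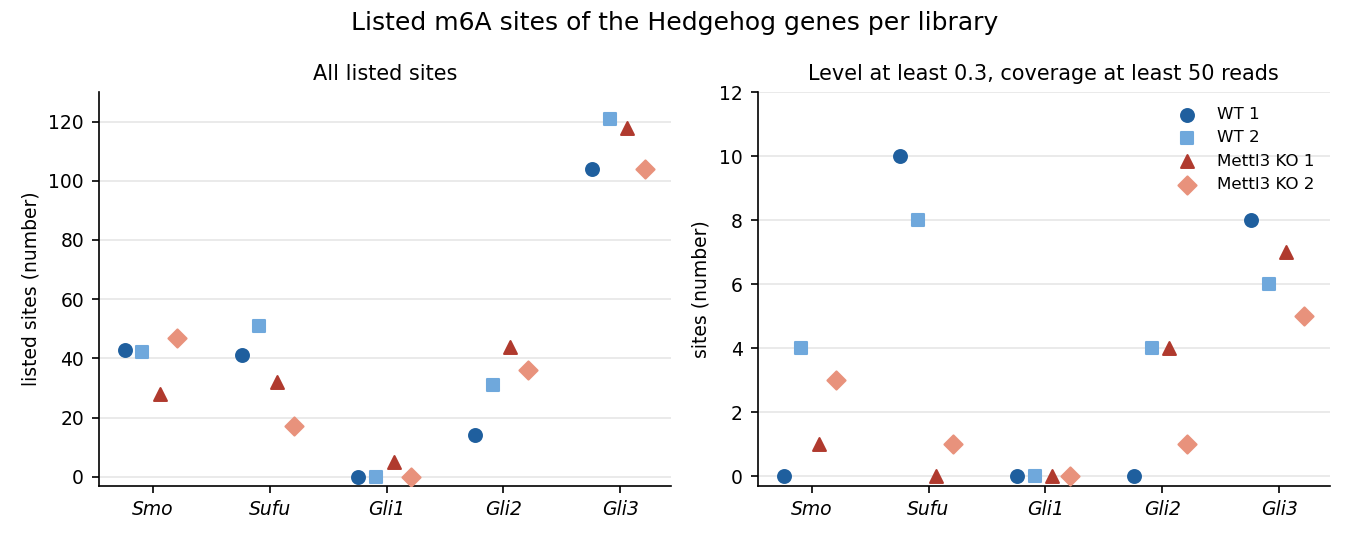
Listed sites per Hedgehog gene and library (left, number of sites) beside the sites of level at least 0.3 and at least 50 reads, with 1 mark for each of the 4 libraries. Gli3 holds the most sites in every library (104 to 121), and Sufu has 10 and 8 strong sites in wild type and 0 and 1 in the knockout.

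Smo encodes the transducer that carries the signal across the membrane, and its listed sites were many, well covered and weak. They numbered 43 and 42 in wild type and 28 and 47 in the knockout, so 1 knockout library lay below both wild type libraries and the other above them. The median level was 0.184 and 0.195 in wild type and 0.140 and 0.172 in the knockout. The gene lies at chromosome 6, 29735502 to 29761364, on the plus strand in the coordinates of the lists. Between 88.4 and 100% of its listed sites carried the lists' intron mark in each library, against 44.7 to 44.9% of all listed sites. The mark was on 72.2 to 87.1% of sites in Gli2, 8.65 to 18.2% in Gli3 and 0 to 9.80% in Sufu. In knockout replicate 2 all 47 Smo sites carried it, including the 25 within 3000 bases of the gene end. The mark was not checked against a gene model, so it is not read here as a position in an intron.

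The Smo site with the highest mean wild type level among those in both wild type lists was at 29735958, close to the 5′ end of the gene. It read 22 A of 77 reads (level 0.286, 95% Wilson interval 0.197 to 0.395) and 73 of 146 (0.50, 0.420 to 0.580) in wild type. In the knockout it was listed in replicate 2 alone, at 12 of 63 (0.190, 0.112 to 0.304). All intervals cover counting error only, since reads without molecular tags may include PCR copies. The next site by level, at 29735891, read 0.226 and 0.353 in wild type over 31 and 68 reads and was in neither knockout list. The site at 29754475 read 0.208 and 0.340 in wild type and 0.136 in knockout replicate 1. At both sites that a knockout library listed, its level was below both wild type values, and its interval overlapped that of at least 1 wild type library.

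The deepest Smo site shared by the wild type lists, chosen after its values were seen, was at 29760756, 608 bases before the gene end. It read 210 A of 1142 reads (0.184, 0.162 to 0.207) and 331 of 1304 (0.254, 0.231 to 0.278). It was in neither knockout list, although its wild type coverage scaled by the gene coverage of Smo gave an expected 1297 and 1047 reads there. At the wild type mean level those reads would have held 284 and 229 A reads. The coverage of an unlisted site is not known, and the part of coverage in its absence was not tested. Another pair of sites near the 3′ end was still listed in knockout replicate 2: 29760315 read 0.190 and 0.230 in wild type and 0.247 in knockout replicate 2, and 29760487 read 0.143 and 0.221 against 0.127, with overlapping intervals. One Smo site, at 29758354, was shared by the knockout lists and absent from the wild type lists, with 0.147 over 68 reads and 0.323 over 31.

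Sufu encodes the inhibitor that holds GLI proteins in the cytoplasm, and its strong listed sites were mostly in the wild type lists. The wild type libraries listed 41 and 51 sites in it and the knockout libraries 32 and 17 (ratio of means 0.533, exact permutation p = 0.333). Both knockout libraries were below both wild type libraries, as they were in 26.0% of genes. The median level was 0.282 and 0.273 in wild type and 0.187 and 0.216 in the knockout, where the medians of all listed sites were 0.246 and 0.241 against 0.213 and 0.232. Sufu lies at chromosome 19, 46385335 to 46477243, plus strand. Its sites were concentrated at the 3′ end: 35 and 40 in wild type and 23 and 12 in the knockout lay within 3000 bases of the gene end. Sites there with at least 50 reads that carry the gene's own value numbered 23 and 24 in wild type and 12 and 10 in the knockout. Their highest level was 0.939 and 0.729 in wild type and 0.215 and 0.30 in the knockout. Levels of at least 0.5 occurred at 6 and 4 such sites in wild type and at 0 in both knockout libraries. Values over all genes are not given here for this window, so these counts and highest levels cannot be read as particular to Sufu. At any coverage, the highest level of sites there with the gene's own value was 0.939 and 0.844 in wild type and 0.625 and 0.387 in the knockout. Over the whole gene and at any coverage, Sufu sites of level at least 0.3 numbered 19 and 19 in wild type and 11 and 6 in the knockout. The highest level of all was then 0.939 and 1.00 in wild type and 0.625 and 1.00 in the knockout. The share over all genes is not given here for this count either.

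The strongest shared Sufu site was at 46474509, 2734 bases before the gene end, with 29 A of 52 reads (0.558, 0.423 to 0.684) and 43 of 59 (0.729, 0.604 to 0.826). It was in neither knockout list, where 49.6 and 45.5 reads were expected. The second, at 46475121, read 33 of 55 (0.60, 0.468 to 0.719) and 77 of 115 (0.670, 0.579 to 0.749). It too was absent from both knockout lists, at an expected coverage of 73.4 and 67.2 reads, which would have held 46.6 and 42.7 A reads at the wild type level. Its neighbour at 46475129 read 0.564 over 55 reads and 0.533 over 120 in wild type and was still listed in knockout replicate 1, at 7 of 66 (0.106, 0.0523 to 0.203). The knockout interval of that site lay below both wild type intervals, whose lower bounds were 0.433 and 0.444. Another position of the same cluster, 46475112, chosen after its values were seen, read 0.282 and 0.315 in wild type and was in neither knockout list.

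Some Sufu sites did not follow that order. The site at 46474937 was shared by the knockout lists alone, with 0.102 over 215 reads and 0.294 over 143. The nearby site at 46474944, chosen after its values were seen, read 0.176 in wild type replicate 2 and 0.176 and 0.30 in the knockout. Wild type replicates also disagreed: 46474890, chosen in the same way, read 276 A of 294 reads (0.939) in wild type replicate 1 but was not listed in replicate 2, where 372 reads were expected. The site at 46475512 read 0.140 in wild type replicate 1 and 0.406 in replicate 2, with 0.119 in knockout replicate 2.

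**Figure D2:**
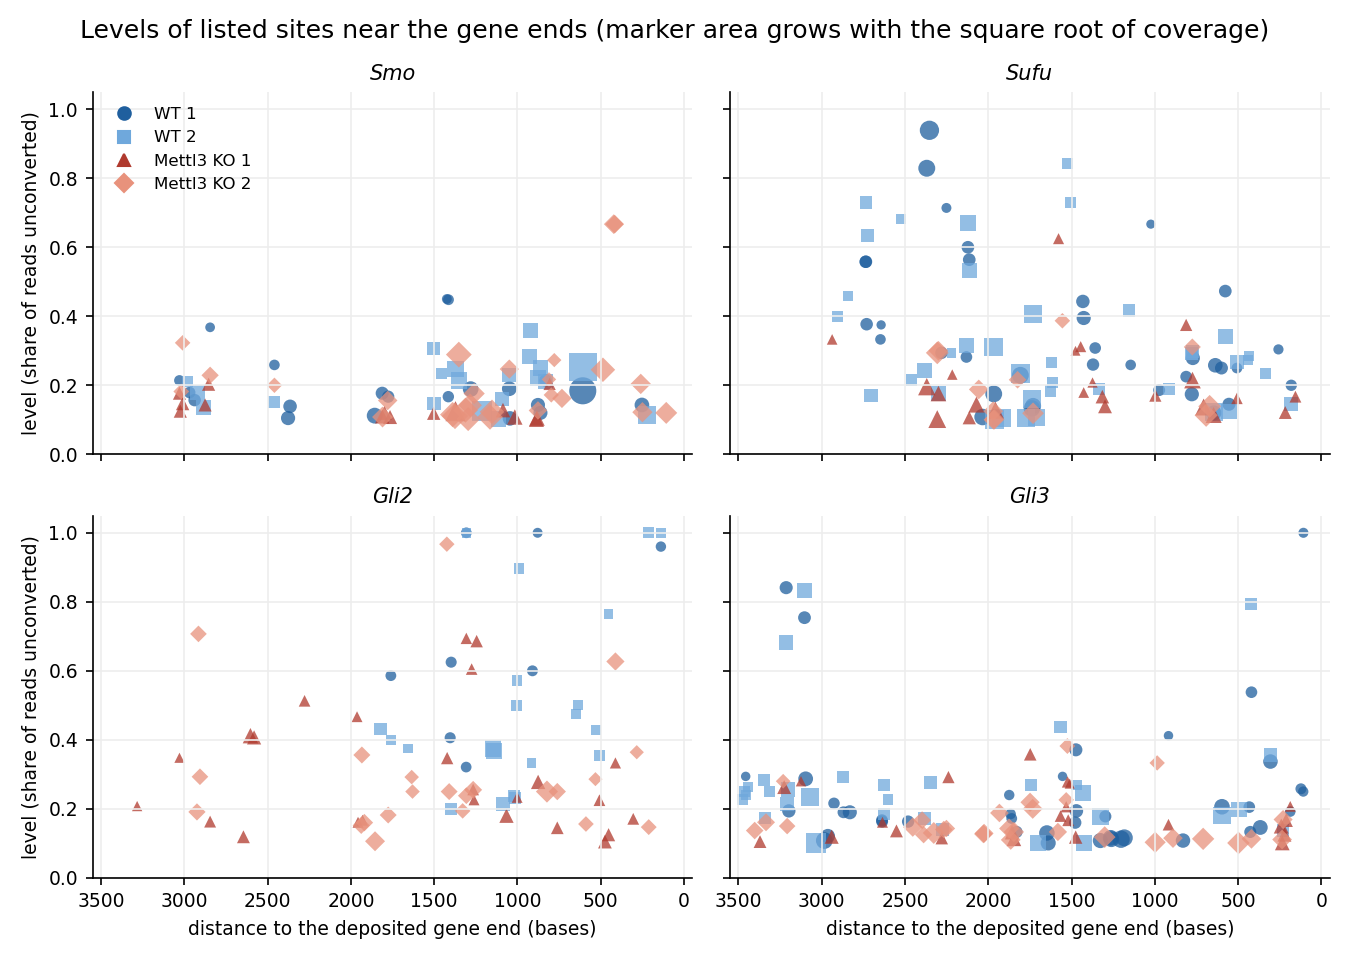
Level of each listed site (share of A reads) against its distance in bases from the gene end, near the ends of Smo, Sufu, Gli2 and Gli3, with a mark for each of the 4 libraries whose area grows with coverage. In Sufu the wild type sites of at least 50 reads and with a gene value reach 0.939 and 0.729, and the knockout sites of that kind reach 0.215 and 0.30.

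Gli2 encodes the main activating GLI factor, and its pattern was the reverse of Sufu in number: more listed sites in the knockout, at a lower median level. The lists held 14 and 31 sites in wild type and 44 and 36 in the knockout (ratio 1.78, exact permutation p = 0.333), and both knockout libraries were above both wild type libraries, as in 11.4% of genes. The median level was 0.980 and 0.375 in wild type, a wide spread within the group, and 0.267 and 0.252 in the knockout. Sites of level at least 0.3 numbered 13 and 22 in wild type and 21 and 14 in the knockout, with overlapping groups. Median site coverage was 27.0 and 29.0 reads in wild type against 37.0 and 36.0, and the part of coverage in the counts and levels was not tested. Gli2 lies at chromosome 1, 118761862 to 118981349, minus strand. Within 3000 bases of the gene end it had 8 and 21 sites in wild type and 23 and 22 in the knockout.

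One Gli2 site, at 118763169, was the single Hedgehog site present in all 4 lists. It read A in 28 of 28 reads and 17 of 17 in wild type, and in 25 of 36 (0.694, 0.531 to 0.820) and 10 of 42 (0.238, 0.135 to 0.385) in the knockout. The wild type intervals began at 0.879 and 0.816, so only the lower bound of wild type replicate 2 touched the interval of knockout replicate 1. With 17 reads in 1 library it missed the minimum of 20 reads for the test of levels. At a minimum of 15 reads, edgeR's quasi-likelihood test over 1690 sites called 46 lower (2.72%). This Gli2 site was not among them, with an edgeR adjusted p of 0.187.

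The other Gli2 sites named by the rule had 20 to 59 reads. The site at 118762001 read 24 A of 25 and 26 of 26 in wild type (0.805 to 0.993 and 0.871 to 1) and was in neither knockout list, where 35.6 and 36.3 reads were expected. The site at 118763622 read 0.586 over 29 reads and 0.400 over 20, and was also in neither. In the other direction, 118762274 was listed in the knockout alone, with 11 of 33 (0.333, 0.198 to 0.504) and 37 of 59 (0.627, 0.50 to 0.739), and 118763128 read 0.256 over 39 reads and 0.255 over 55. Both pairs of lists thus held Gli2 sites that the other pair lacked.

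Gli3 encodes the GLI factor that is processed to the main repressor, and it carried 419 of the 790 listed Hedgehog sites, in like numbers in both genotypes. Wild type libraries listed 104 and 121 sites and knockout libraries 118 and 104, with overlapping groups. The median level was 0.240 and 0.292 in wild type and 0.268 and 0.227 in the knockout, again overlapping. The gene spans chromosome 13, 15637820 to 15904611, plus strand, and its sites were spread along it: 36 and 19 in wild type and 20 and 26 in the knockout lay within 3000 bases of the end. A large share of Gli3 sites carried a value of gene coverage repeated along the whole chromosome in place of the gene's own: 47.1 and 55.4% in wild type and 39.8 and 35.6% in the knockout, against 18.4 to 24.3% of all listed sites.

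The 2 Gli3 sites of highest mean level among those in both wild type lists with at least 20 reads lay close together just over 3000 bases before the gene end. The site at 15901508 read 43 A of 57 (0.754, 0.629 to 0.848) and 80 of 96 (0.833, 0.746 to 0.895) in wild type. The site at 15901398 read 53 of 63 (0.841, 0.732 to 0.911) and 60 of 88 (0.682, 0.579 to 0.770). Neither was in a knockout list, at expected coverages of 96.7 and 79.6 reads for the first and 96.1 and 79.2 for the second. At the wild type level the first would have held 76.7 and 63.2 A reads. The site at 15904191, 420 bases before the end, read 0.538 over 39 reads and 0.795 over 44 in wild type, and 9 of 80 (0.113, 0.0603 to 0.20) in knockout replicate 2. That knockout interval lay below both wild type intervals, which began at 0.386 and 0.655.

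Among Gli3 sites in both knockout lists with at least 20 reads in each and in neither wild type list, the highest mean levels were at 15899563 and 15903079. The site at 15899563 read 0.273 over 22 reads and 0.233 over 30, and 15903079 read 0.206 over 34 and 0.226 over 31. With fewer reads, 15792401 read 6 A of 28 and 15 of 16 in the knockout, and 15823215 read 7 of 37 and 9 of 18, both chosen after their values were seen.

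Gli1, the target gene that reports active signalling, had few listed sites. It had 0 sites in both wild type libraries and in knockout replicate 2, and 5 in knockout replicate 1, at levels of 0.308 to 0.615 over 18 to 40 reads. Of those, 3 lay within 386 bases of the start of the gene and carried chromosome-wide values. The gene spans chromosome 10, 127165751 to 127177843, minus strand. Its gene coverage in knockout replicate 1 was 20.5, or 0.384 of the library median, and no gene value could be given in the other libraries, so Gli1 entered no test.

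Few Hedgehog sites recurred between libraries. Of the 790 sites, 716 (90.6%) were in 1 list and 1 was in all 4. The wild type lists shared 36 of the 411 sites in either (8.76%, against 5.89% of all sites), and the knockout lists shared 13 of 418 (3.11%, against 2.74%). Mixed pairs shared 2.51 to 3.87%. The wild type-shared sites comprised 13 in Sufu, 10 each in Smo and Gli3 and 3 in Gli2, and 24 of the 36 (66.7%) lay within 3000 bases of a gene end. Of the sites in 1 list, 268 of 716 (37.4%) did, and 395 of these 716 lay in Gli3. By gene the shares were 50.0% of shared and 51.7% of single-list sites in Smo, 92.3 and 73.7% in Sufu, and 40.0 and 20.3% in Gli3.

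Of the 35 Hedgehog sites in both wild type lists with at least 20 reads in each, 25 (71.4%, 54.9 to 83.7) were in neither knockout list. Over all genes the share was 82.9%, which the Hedgehog interval just includes. Intervals of shares treat sites as independent, although some lie a few bases apart and all come from the same libraries, so they may be too narrow. Where scaled coverage predicted at least 50 reads in both knockout libraries, 19 of 25 (76.0%) were absent, against 81.5% over all genes. With a wild type level of at least 0.3 as well, the count was 5 of 6, against 85.2%. By gene, among the 35 sites with at least 20 reads in each wild type list, 10 of 13 were absent in Sufu, 7 of 10 in Gli3, 6 of 10 in Smo and 2 of 2 in Gli2. In the other direction, 8 of the 11 sites in both knockout lists with at least 20 reads (72.7%, 43.4 to 90.3) were in neither wild type list, against 72.0% over all genes. The intervals of the 2 directions overlap.

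**Figure D3:**
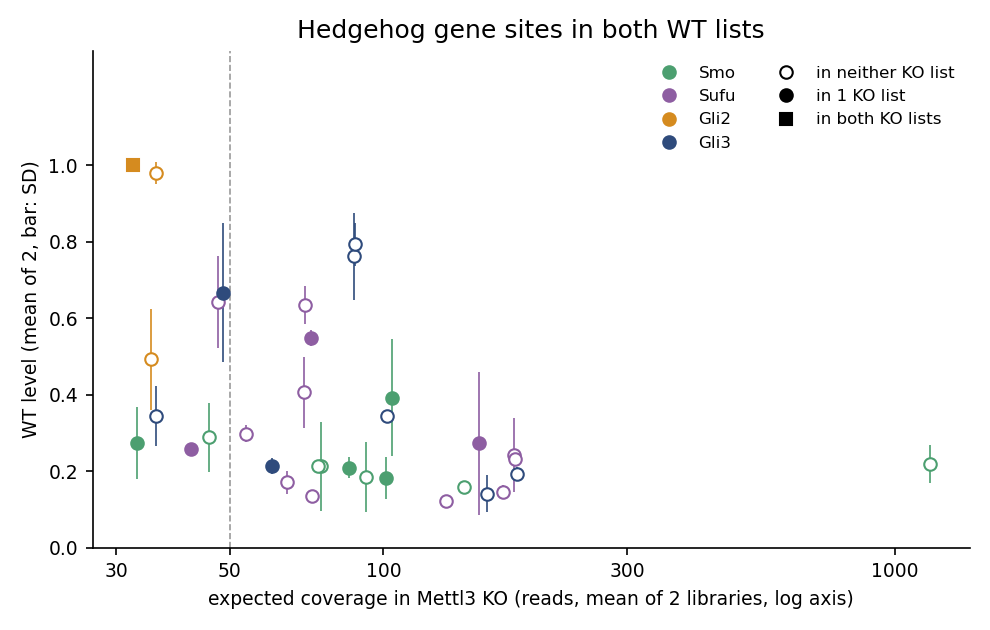
Wild type-shared Hedgehog sites with a gene value, by mean wild type level (share of A reads) and by the coverage expected in the knockout (reads, log axis), marked by whether a knockout list held them. The Sufu sites at 46474509 and 46475121 and the Gli3 sites at 15901398 and 15901508 have mean levels of 0.643, 0.635, 0.762 and 0.794 and were in neither knockout list.

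Levels could be tested only at sites in all 4 lists with at least 20 reads in each, and 0 of those 1557 sites lay in a Hedgehog gene. Over them, edgeR's quasi-likelihood test with Benjamini-Hochberg adjustment called 41 lower in the knockout (2.63%) and 0 higher, with 90 lower and 29 higher at an unadjusted p under 0.05. Leaving out 1 library brought in Hedgehog sites present in the other 3 lists, and none of them passed. Without wild type replicate 1 the test called 2.79% of sites lower and without replicate 2 it called 2.46%, and the Hedgehog sites had adjusted p-values of 0.438 to 0.977. Without knockout replicate 1, the smallest adjusted p was 0.120, for Gli3 15904191, where 157 of 3163 sites (4.96%) were called lower. Without knockout replicate 2, the smallest was 0.0943, for Sufu 46475129, where 0 of 3194 sites were called by the same test (411 lower and 51 higher at an unadjusted p under 0.05).

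Gene coverage, taken to be a measure of reads over a whole gene, was higher in both knockout libraries for Gli2 and Gli3, and the values of Smo and Sufu lay close together. For Gli2 it was 0.622 and 0.621 of the library median in wild type and 0.873 and 1.02 in the knockout. The groups did not overlap, and the log2 difference was 0.61 ± 0.17 (SE), with a limma adjusted p of 0.0585 over 8272 genes, which missed the threshold of 0.05. For Gli3 the values were 1.20 and 1.24 against 1.58 and 1.5, also apart, with a log2 difference of 0.33 ± 0.16 and an adjusted p of 0.245. Both knockout libraries were above both wild type libraries in 24.7% of genes. Sufu had 1.33 and 1.48 against 1.26 and 1.33 (-0.11 ± 0.16, adjusted p = 0.727). Smo had 2.96 and 3.34 against 3.36 and 3.12 (0.04 ± 0.17, adjusted p = 0.911), and the sign of its difference turned without the centring of libraries (-0.07). The gene coverage of Sufu, where strong sites were fewer in the knockout, overlapped at its edge between the groups. Its listed sites of at least 50 reads near the gene end numbered 23 and 24 in wild type and 12 and 10 in the knockout. The part of coverage in the number of strong sites was not tested.

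In this limma fit 0 of the 4 tested Hedgehog genes passed in either direction. Of all genes, 212 (2.56%) were called higher and 251 (3.03%) lower, and at an unadjusted p under 0.05 there were 902 higher and 1014 lower. Without centring the split was 101 higher and 300 lower, and the median of all genes moved from -0.02 to -0.13. The call on Gli2 depended on how the spread was moderated: its adjusted p was 0.0454 with robust moderation (3.49% of genes called higher) and 0.0455 with a trend (3.05%), and 0.273 without centring. Gene coverage before scaling, in the deposited signal, was 31.3 and 35.6 for Gli2 in wild type and 46.6 and 47.5 in the knockout. The genes whose coverage followed Gli2 most closely over the 4 libraries were Rbm15, Rgmb and Nat2, with root mean square differences of 0.028, 0.030 and 0.035 on the log2 scale.

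**Figure D4:**
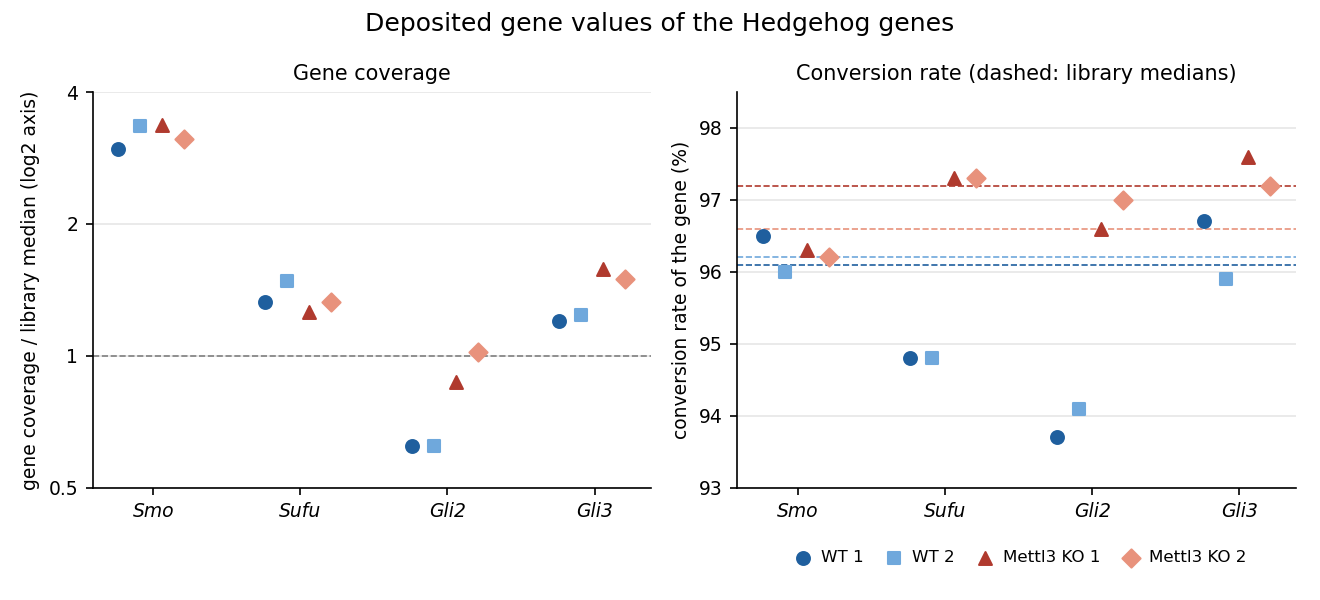
Gene coverage over the library median (left, log2 axis) and conversion rate in percent (right, dashed lines at the library medians) of Smo, Sufu, Gli2 and Gli3 in each of the 4 libraries. Both knockout points lie above both wild type points for Gli2 and Gli3 on the left, and for Sufu, Gli2 and Gli3 on the right.

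The promoters of Gli2 and Gli3 are printed because these are the Hedgehog genes whose coverage was higher in both knockout libraries. Each is the 250 bases before the RefSeq gene start on build GRCm38.p6, at chr1:119053620-119053869 on the minus strand for Gli2 and chr13:15463473-15463722 on the plus strand for Gli3. These coordinates do not follow the numbering of the site lists. Capitals mark the GC box, GGGCGG or its reverse complement CCGCCC.
Gli2: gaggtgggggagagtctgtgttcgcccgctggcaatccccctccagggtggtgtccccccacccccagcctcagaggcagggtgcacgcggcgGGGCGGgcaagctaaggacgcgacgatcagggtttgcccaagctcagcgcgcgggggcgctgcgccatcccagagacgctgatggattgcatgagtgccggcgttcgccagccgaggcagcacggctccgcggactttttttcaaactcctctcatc
Gli3: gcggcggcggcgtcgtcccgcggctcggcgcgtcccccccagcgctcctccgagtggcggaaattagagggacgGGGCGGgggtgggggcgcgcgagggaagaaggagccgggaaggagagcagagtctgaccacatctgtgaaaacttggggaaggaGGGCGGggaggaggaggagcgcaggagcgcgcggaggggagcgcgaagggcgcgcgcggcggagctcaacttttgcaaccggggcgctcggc
The GC box occurred in 4 of the 5 Hedgehog promoters with an entry (Gli2, Gli3, Ptch1 and Sufu), with 1 copy in Gli2 and 2 in Gli3, and in 32.7% of 32851 promoters of the same length. The GLI consensus GACCACCCA, or TGGGTGGTC on the other strand, occurred in 0 of the 5 and in 0.225% of all. These matches describe the letters of the windows only.

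The conversion rate, taken to be the share of A bases in a gene that were read as G, was higher in both knockout libraries for Sufu, Gli2 and Gli3 and overlapped between the groups for Smo. Sufu had 94.8 and 94.8% in wild type and 97.3 and 97.3% in the knockout, a difference of 2.46 percentage points. Gli2 had 93.7 and 94.1% against 96.6 and 97.0%, a difference of 2.93 points. Gli3 had 96.7 and 95.9% against 97.6 and 97.2%, a difference of 1.04 points, and Smo had 96.5 and 96.0% against 96.3 and 96.2%, a difference of -0.0195 points. Both knockout libraries were above both wild type libraries in 50.0% of genes, and the median difference over all genes was 0.634 points. A difference at least as high was found in 5.17% of genes for Gli2, 8.47% for Sufu, 34.9% for Gli3 and 79.8% for Smo. The library medians of this rate also differed, at 96.1 and 96.2% in wild type and 97.2 and 96.6% in the knockout.

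Around the 6 named genes, a wider list of 39 Hedgehog genes covered ligands, co-receptors, cilium components, kinases and targets, and 24 of them could be tested for gene coverage. None passed in the limma fit (2 higher and 6 lower at an unadjusted p under 0.05), against 5.60% of all genes called either way. Their median log2 difference was -0.14, against -0.02 for all genes, with 8 values above 0 and 16 below. The genes named next were chosen after their values were seen. The co-receptors that present ligand to Patched had 3 of 3 values above 0: Cdon 0.38 ± 0.17 (adjusted p = 0.204), Gas1 0.34 ± 0.18 (0.279) and Boc 0.27 ± 0.16 (0.342). Kif7, the ciliary kinesin that regulates GLI processing, had 0.59 ± 0.19 (adjusted p = 0.0862) among 4 values above 0 and 5 below in the cilium group.

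Kinases and turnover factors, which phosphorylate or degrade GLI proteins, had 1 value above 0 and 8 below. Prkaca, the catalytic subunit of protein kinase A, had -0.56 ± 0.17 (adjusted p = 0.0801), and it passed as lower when only genes at or above the median coverage were tested, where 8.99% of genes were called lower. Scube2, which helps to release ligand, had -0.51 ± 0.16 (adjusted p = 0.0944). Of the targets, Mycn had -0.43 ± 0.16 (adjusted p = 0.139) and Ccnd1 -0.20 ± 0.17 (0.50). Nkx6-1, a ventral neural gene, had 0 listed sites in both wild type libraries and 5 and 7 in the knockout. Both knockout libraries held more sites than both wild type libraries in 11.4% of the 8272 genes with a gene value in every library. Nkx6-1 is not among these: its gene coverage was 0.372 and 0.568 of the library median in the knockout, with no value in wild type, so it entered no test. Among wild type-shared sites of the wider list with at least 20 reads, 63 of 70 (90.0%, 80.8 to 95.1) were in neither knockout list, an interval that includes the 82.9% of all genes. Shh, Ihh, Disp1, Ift88, Nkx2-1, Nkx2-2 and Olig2 were not analysed here.

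**Figure D5:**
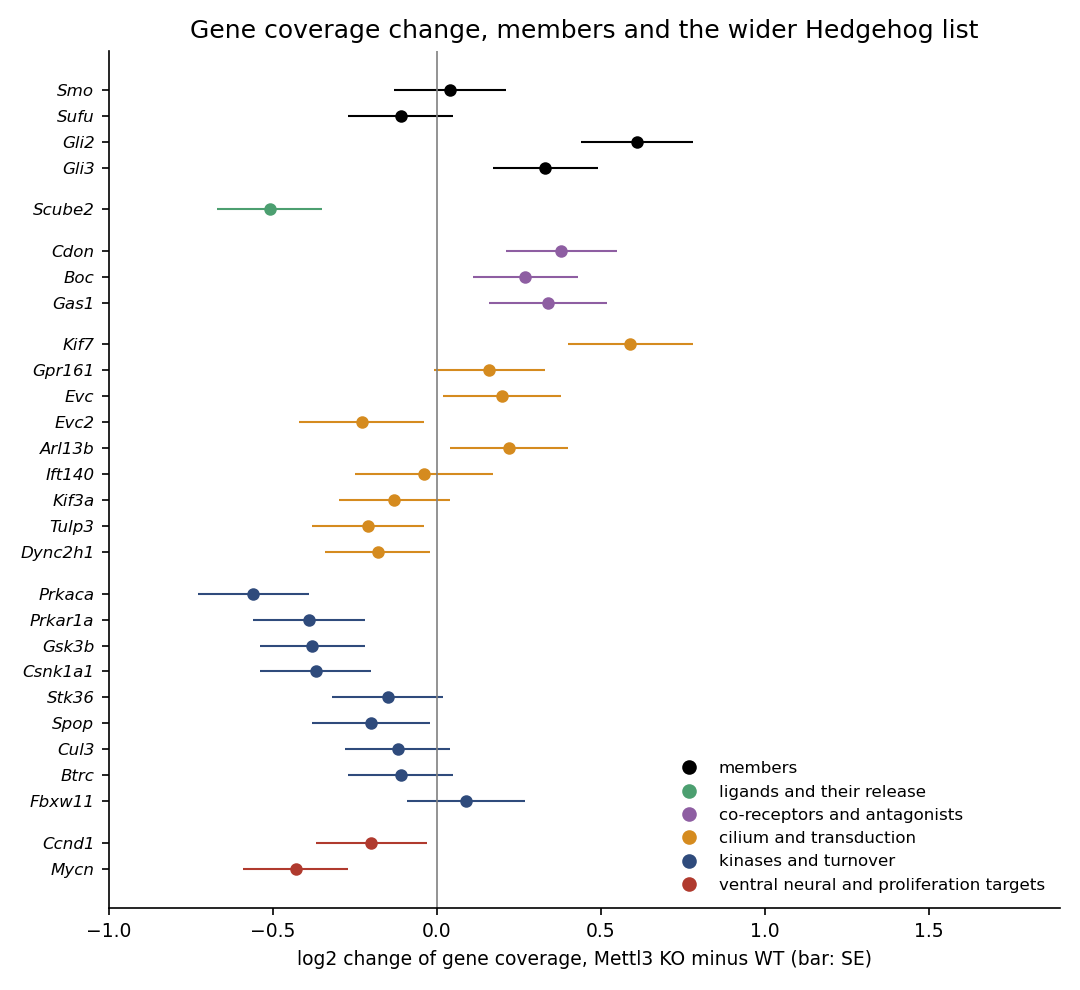
Log2 difference in gene coverage (knockout minus wild type, bars show the standard error) for the 4 tested Hedgehog genes and the 24 tested genes of the wider list, grouped by role. Gli2 (0.61) and Kif7 (0.59) have the highest values and Prkaca (-0.56) and Scube2 (-0.51) the lowest of those described.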

How the data were processed

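The members and gene lists were chosen with earlier results of these data known. The authors deposited one site list per library, with counts of A reads and of A plus G reads per site, the level as a fraction, an adjusted p-value per site and, as signal, the gene coverage; the conversion rate is also a deposited fraction. The test behind the authors' p-value, the aligner and the caller are not given in the sources used here. The submitters' processing notes name mm10, but for 8966 genes whose start differed by over 50000 bases from GRCm38, 522177 listed sites lay inside the deposited spans and 234751 inside the GRCm38 spans, so positions are given as the lists number them, on a build not named here.

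Repeated lines of a site were counted once. Values repeated on both strands over more than 20000000 bases of a chromosome were not taken as gene values, and a gene needed 1 value of its own per library, which left 8272 protein-coding genes with 4 values. Gene coverage was tested on log2 values, centred on library medians, with limma 3.58.1, and levels with edgeR 4.0.16 on A and G counts, in R 4.3.3, both fitted over all features and tested on simulated data. Adjusted p-values are Benjamini-Hochberg values, with a threshold of 0.05. Python 3.11.15 was used for the rest. Single values were compared by two-sided exact permutation tests, in which 2 libraries against 2 cannot go below 0.333. Shares have 95% Wilson intervals, which treat sites as independent. Expected knockout coverage is the mean over wild type libraries of site coverage over gene coverage, multiplied by the knockout gene coverage.

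Sites were named by rule: per gene, up to 3 wild type-shared sites with at least 20 reads and the highest mean level, every site in all 4 lists, and up to 2 knockout-shared sites in neither wild type list. Genes of the wider list were to be named where they passed, and the 3 genes most like the member of smallest adjusted p by root mean square difference. The gene starts and promoters come from RefSeq on GRCm38.p6. Alternatives to thresholds, scaling, moderation, pairing and libraries were run.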

Additional observations from a re-analysis of the deposited data

How the results depend on the processing

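Of 153 alternative values, 136 kept their direction and their side of the threshold or stayed within the spread. These include settings of the level test in which 0 Hedgehog sites were tested, so that their count of 0 was fixed in advance. Calls of lower and of higher values were also counted as separate alternatives. The ratio of listed Hedgehog sites, 0.964, became 0.553 at a coverage of at least 100, with groups that no longer overlapped, and 0.818 at a level of at least 0.2. The ratio of strong sites, 0.550, became 0.806 at a coverage of at least 20, with overlapping groups, and 0.154 at 100. Ratios over all genes are not given here for these settings. The share of wild type-shared sites in neither knockout list, 71.4%, became 88.9% (n = 9) at an expected coverage of at least 100, and 85.7% without knockout replicate 1 and 85.7% without knockout replicate 2, by construction, since absence from 1 list then suffices. Gli2 was the 1 member called higher with a trend and with robust moderation, against 0 otherwise, and Prkaca the 1 wider gene called lower above the median coverage. The gene coverage difference of Smo turned from 0.04 to -0.07 without centring, and ranged from -0.05 to 0.13 with single libraries left out (below 0 without knockout replicate 1 or wild type replicate 1); the cause was not tested. The median conversion difference of the members, 1.75 points, was 1.54 to 1.96 with a wild type library left out.

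Replicate numbers did not pair the libraries: deviations of wild type and knockout replicate 1 from their group means correlated at -0.03 over 8272 genes. With a replicate block, limma called 279 genes lower and 267 higher, against 251 and 212, and edgeR 51 sites lower and 4 higher, against 41 and 0. In limma 0 of the 4 members tested were called with the block, and Gli2 had a limma adjusted p of 0.0614. The edgeR fits held 0 Hedgehog sites, so no member could be called there. Over all sites, counts added up within each genotype gave 117 lower and 51 higher by Fisher's exact test, and the edgeR likelihood ratio test 58 and 11. Leaving out 1 library gave 0 to 157 lower sites, 53 to 188 lower genes and 44 to 210 higher genes; testing the 4136 genes of higher coverage gave 372 lower and 374 higher. Depth limits Gli1, which had a gene value in 1 library, and the wild type-shared sites of Gli2, with a median coverage of 25.5 reads.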

Other observations

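Several well covered, high-level Hedgehog sites appeared in 1 library alone. Coverage at these positions in the other libraries is not known, and the expected values given here are scaled from gene coverage. In Smo, knockout replicate 2 listed 29760942 at 54 A of 81 reads (0.667, 0.559 to 0.760) and the neighbouring 29760948 at 42 of 63 (0.667, 0.544 to 0.771). Coverage of 83.3, 107 and 100.3 reads was expected at the first in wild type replicates 1 and 2 and knockout replicate 1. In Gli2, knockout replicate 1 listed 118763107 at 35 of 51 (0.686, 0.550 to 0.797), where 34.2 and 39.0 reads were expected in wild type and 52.0 in knockout replicate 2. In Gli3, wild type replicate 1 listed 15815761 at 30 of 57 (0.526, 0.399 to 0.650), beside the site at 15815759 that read 0.230, 0.20 and 0.103 in the 3 lists holding it. In Sufu, 46474507 was listed in wild type replicate 1 (0.558 over 52 reads) and 46474518 in replicate 2 (0.633 over 60), either side of the shared site at 46474509.

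Sufu 46474874 was listed in 1 library of each genotype, at 145 A of 175 reads (0.829, 0.766 to 0.877) in wild type replicate 1 and 38 of 194 (0.196, 0.146 to 0.257) in knockout replicate 1. These intervals do not overlap, and with 1 library per genotype the difference has no replicate check. All sites of these paragraphs were chosen after their values were seen.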
